A study of Mus musculus with 1 sample.

Results

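The genes described here encode voltage-gated calcium and sodium channels. All genes of the deposited matrix whose symbol starts with *Cacn*, or reads *Scn* followed by a number and then a or b, were taken, which gave 40 of 32285 genes. Of these, 26 belong to calcium channels (10 pore subunits, 4 alpha2delta, 4 beta and 8 gamma subunits) and 14 to sodium channels (10 pore and 4 beta subunits). Wild-type mice of mixed sex (5 animals at postnatal day 15) gave 10 adrenals, whose medullae were pooled once fat and most of the cortex had been trimmed away, and 10000 viable cells entered 1 droplet library with 3′ chemistry. The labels name no transgene and no treatment, and the animals cannot be told apart after pooling. Each unique molecular identifier (UMI) marks 1 transcript molecule. With 1 library there was no replicate and no test, and the exact 95% intervals given below cover counting error only.

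Voltage-gated channels open when the membrane depolarizes. Sodium channels carry the rising phase of the action potential, and calcium channels admit the calcium that triggers release of the chromaffin granules which store adrenaline and noradrenaline. The pore subunit sets the type of channel (L, P/Q, N, R or T for calcium), whereas the alpha2delta and beta subunits bring calcium channels to the membrane and tune their gating. In the adrenal cortex, L type and T type channels are known for their part in potassium- and angiotensin-driven aldosterone production, and in glia *Scn7a* encodes an atypical sodium channel linked to sodium sensing.

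Of 11214 barcodes, 10139 passed the filters of the study's methods, with a median of 3567 UMIs. Clusters were named from marker genes after the channel genes had been left out of the clustering. They gave 1678 adrenaline and 375 noradrenaline chromaffin-like cells, 132 cycling chromaffin-like cells, 415 transitioning-like cells that carried chromaffin and sustentacular markers together, 179 sustentacular-like (glial support) cells, 3717 cortex-like, 2150 endothelial-like, 626 immune-like and 88 fibroblast-like cells. A further 736 cells with markers of more than 1 type and 43 without a name were not compared. The library is labelled medulla, yet cortex-like cells made up 36.7% of it. Depth differed between classes, with medians between 1149 UMIs (sustentacular-like) and 5753.5 UMIs (cycling chromaffin-like). Levels are CPM, the UMIs of a gene summed over a class per 1000000 UMIs of that class, and 1 UMI corresponded to 4.33 CPM in the sustentacular-like cells and to 0.0407 CPM in the cortex-like cells.

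The channel genes had their highest summed levels in the medullary classes. Adrenaline chromaffin-like cells had 974 CPM (952 to 997) over all 40 genes together, and noradrenaline cells had 1260 CPM (1200 to 1323). In transitioning-like cells the sum was 1194 CPM (1152 to 1238). The sustentacular-like sum of 1506 CPM (1352 to 1673) came almost wholly from 1 gene, *Scn7a*, with 1328 CPM. Of the other classes, the fibroblast-like cells had the most, 453 CPM (378 to 539). The cortex-like cells had 240 CPM (234 to 246), the immune-like cells 94.2 CPM (78.3 to 112) and the endothelial-like cells 65.3 CPM (58.9 to 72.3). These are sums over genes, and a level compares classes and not genes.

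Over all cells, 29 of the 40 genes had at least 20 UMIs (72.5%, against 47.5% of all genes and 59.6% of 99 potassium channel genes), and 21 of them reached 10 CPM in a class. The other 11 genes had under 20 UMIs. Among them were *Cacna1s* and *Cacna1f* (L type), *Cacna1g* (T type), *Cacna2d4*, *Cacng5*, *Cacng6*, *Scn11a* and *Scn4b*, while *Scn4a* (skeletal muscle) and *Scn10a* (sensory neurons) had no UMI in any cell.

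**Figure D1:**
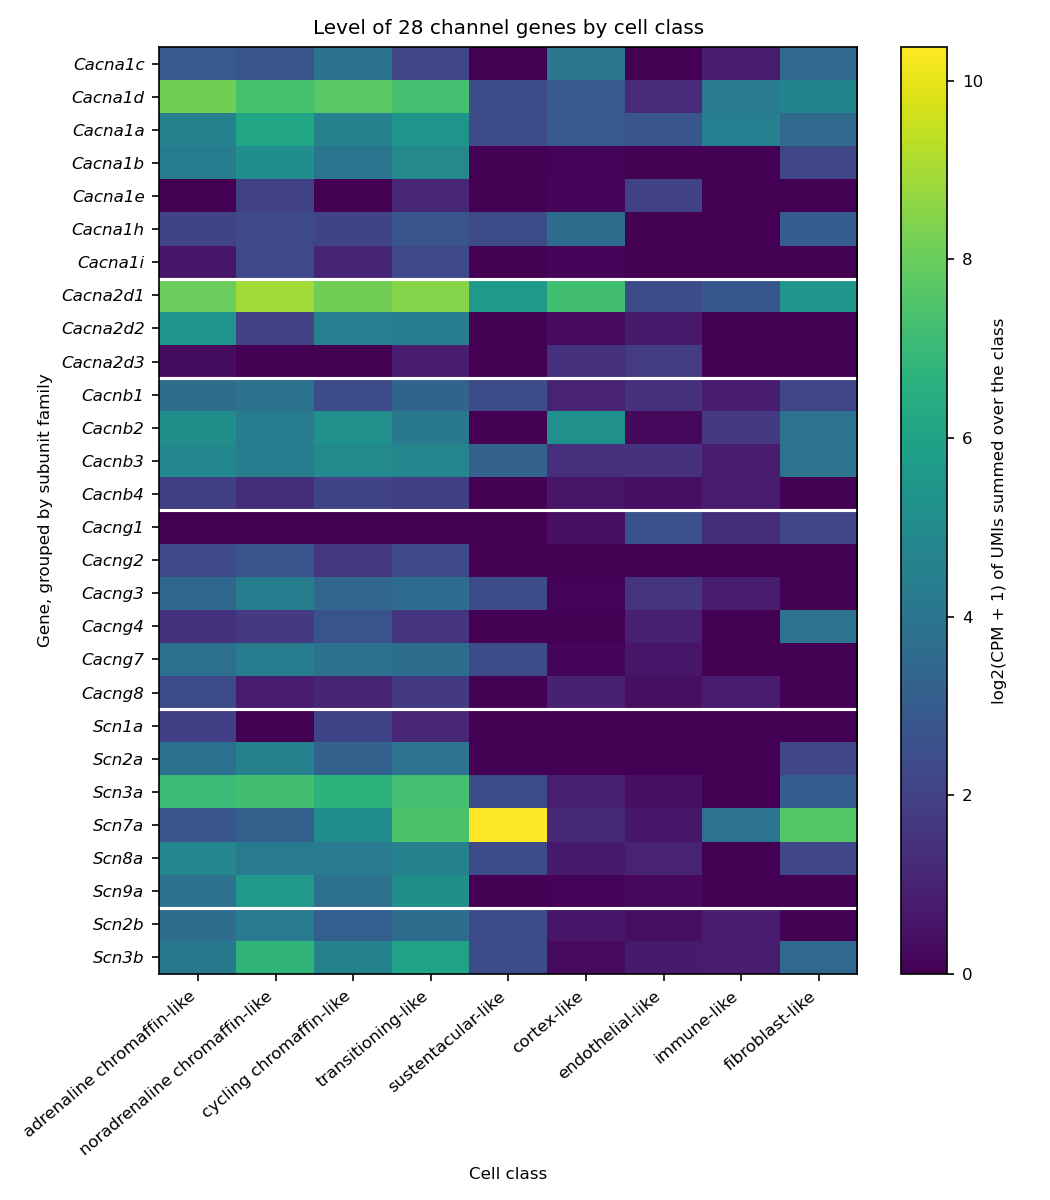
Level of 28 channel genes with at least 20 UMIs (rows, grouped by subunit family) in 9 cell classes (columns), as log2(CPM + 1) of the UMIs summed over each class; lighter colours are higher. Most rows are light in the chromaffin-like and transitioning-like columns, *Scn7a* is lightest in the sustentacular-like column at 1328 CPM, and *Cacna1c* and *Cacna1h* are highest in the cortex-like column.

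Among the calcium pore subunits, *Cacna1d*, which encodes the L type channel Cav1.3 that opens at comparatively negative potentials, was high in every class of the chromaffin lineage. Its level was 275 CPM (263 to 288) for adrenaline, 161 CPM (140 to 185) for noradrenaline, 210 CPM for cycling chromaffin-like and 160 CPM (144 to 176) for transitioning-like cells. Endothelial-like cells had 1.40 CPM (0.605 to 2.76) and sustentacular-like cells 1 UMI. *Cacna1d* was thus 184-fold higher in chromaffin-like cells (adrenaline and noradrenaline summed) than in endothelial-like cells (93.4 to 428). A *Cacna1d* UMI was found in 58.9% of adrenaline chromaffin-like cells at a median depth of 3155 UMIs, against 0.372% of endothelial-like cells at 2005.5 UMIs. With every cell thinned to 1000 UMIs, the shares were 23.1% (21.1 to 25.2) and 0.161% (0.0331 to 0.469).

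The other L type gene with signal, *Cacna1c* (Cav1.2, the cardiac and smooth muscle form), had the opposite order. Cortex-like cells had 16.4 CPM (14.9 to 18.1) and adrenaline chromaffin-like cells 6.65 CPM (4.92 to 8.79), with no UMI in 2150 endothelial-like cells, which allows 0.525 CPM. *Cacna1a* (P/Q type) and *Cacna1b* (N type), the pore subunits of the main presynaptic calcium channels, were chromaffin genes of unlike specificity. *Cacna1b* had 20.2 CPM (149 UMIs) in adrenaline, 32.6 CPM (42 UMIs) in noradrenaline and 28.4 CPM (72 UMIs) in transitioning-like cells, against 2 UMIs in all cortex-like and none in endothelial-like, immune-like and sustentacular-like cells. The lack of a UMI in sustentacular-like cells allows 12.98 CPM, so a 2-fold gap to the adrenaline level was not detectable there. *Cacna1a* was read in every class, from 4.33 CPM (1 UMI) in sustentacular-like to 70.6 CPM in noradrenaline chromaffin-like cells, with 6.75 CPM (5.76 to 7.86) in cortex-like, 5.78 CPM (3.98 to 8.12) in endothelial-like and 21.4 CPM (14.2 to 31.0) in immune-like cells. Each of 7 chromaffin markers (*Chga*, *Chgb*, *Th*, *Ddc*, *Dbh*, *Slc18a1* and *Pnmt*) stood at 0.258% to 0.760% of its chromaffin-like level in endothelial-like cells. In cortex-like cells they stood at 0.232% to 0.834%.

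The T type channels, which open near rest and inactivate fast, gave little signal in chromaffin-like cells. The 3 T type genes together had 4.73 CPM (3.40 to 6.42) in chromaffin-like and 11.8 CPM (10.5 to 13.3) in cortex-like cells, and 288 of the 291 cortex-like UMIs were *Cacna1h* (Cav3.2). Transitioning-like cells had 9.46 CPM (6.06 to 14.1) on 24 UMIs, an interval that overlaps the cortex-like one. *Cacna1e*, the R type pore subunit, had 3.15 CPM (18 UMIs) in endothelial-like cells. Noradrenaline chromaffin-like cells had nearly the same level, 3.10 CPM, on 4 UMIs only, and adrenaline chromaffin-like cells had none.

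Of the alpha2delta subunits, *Cacna2d1*, whose product also binds gabapentin, was read in every class. Adrenaline chromaffin-like cells had 254 CPM (243 to 266), noradrenaline cells 494 CPM (457 to 534). It had 358 CPM (335 to 382) in transitioning-like and 149 CPM (145 to 154) in cortex-like cells, against 4.20 CPM (2.69 to 6.25) in endothelial-like cells. *Cacna2d2* had its highest level in the adrenaline cells, at 43.0 CPM (38.4 to 48.0), and had 0.203 CPM (5 UMIs) in cortex-like cells. In cycling chromaffin-like and transitioning-like cells it was not 2-fold apart from the chromaffin-like level. *Cacna2d3* had at most 2.45 CPM in any class, in endothelial-like cells (14 UMIs).

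The beta subunits, which bind the pore inside the cell, were all read in chromaffin-like cells. *Cacnb2* had 31.8 CPM there and 35.6 CPM (33.3 to 38.0) in cortex-like cells, a ratio of 0.892 (0.776 to 1.02). *Cacnb3* was 15.1-fold (10.9 to 21.5) and *Cacnb1* 11.6-fold (7.48 to 18.5) higher in chromaffin-like than in cortex-like cells. *Cacnb4* stood at 2.66 CPM in chromaffin-like and 0.447 CPM in cortex-like cells. The interval of the *Cacnb2* ratio thus includes 1, but with cells thinned to 1000 UMIs the ratio was 0.690, outside that interval. The cortex-like level of *Cacnb2* also sums clusters that differ, as given below. The other beta subunits were lower in cortex-like cells.

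The gamma genes, most of which are better known as AMPA receptor auxiliary subunits, were low. *Cacng3* had 11.4 CPM (99 UMIs) and *Cacng7* 14.0 CPM (121 UMIs) in chromaffin-like cells, against 2 and 3 UMIs in all cortex-like cells. *Cacng2* had 36 UMIs in chromaffin-like cells and none in cortex-like cells, where it was 34.1-fold lower when set at 3 counts over the class. *Cacng1*, the skeletal muscle gamma subunit, was read in endothelial-like cells (29 UMIs, 5.08 CPM) and had none in chromaffin-like cells.

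Counted as genes at least 2-fold apart in CPM among those with at least 20 UMIs over both classes, 24 of 27 channel genes were higher in chromaffin-like than in endothelial-like cells, where 25.7% of all compared genes were, and 3 were lower, *Cacna1e* and *Cacng1* among them, against 22.6% of all. The median log2 ratio of the channel genes was 3.62, with genes at 0 UMIs in endothelial-like cells set at 3 counts, beside 0.00 over all compared genes. Of 42 potassium channel genes, 33 were higher and 7 lower. Against cortex-like cells, 20 of 25 channel genes were higher (24.1% of all genes) and 3 were lower (23.3% of all), with a median log2 ratio of 4.31 beside 0.00 over all. The 3 lower genes were *Cacna1c*, 2.54-fold (1.92 to 3.42), *Cacna1h*, 3.38-fold (2.32 to 5.11), and the low *Cacna2d3* (2 UMIs against 44, a chromaffin-like over cortex-like ratio of 0.129, 0.0152 to 0.495). With cells thinned to 1000 UMIs, the chromaffin-like over cortex-like ratio of *Cacna1c* was 0.181 in place of 0.393. Neither *Cacna2d1*, at a ratio of 1.94 (1.84 to 2.04), nor *Cacnb2* was 2-fold apart.

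The 2 hormone classes were compared next, since noradrenaline cells lack *Pnmt*, the enzyme that makes adrenaline. Of 24 channel genes, 4 were at least 2-fold higher in noradrenaline chromaffin-like cells (6.1% of all compared genes) and 3 were lower (8.95% of all), while 17 lay between. The 4 higher genes were *Scn3b*, *Scn9a*, *Cacna1a* and *Cacng3*, and *Cacna2d2* and *Cacng8* were among the lower genes.

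*Scn3b*, a sodium channel beta subunit, had the widest gap upward, with noradrenaline cells at 109 CPM (91.4 to 128) and adrenaline cells at 17.5 CPM (14.6 to 20.8), a ratio of 6.21 (4.85 to 7.95). *Scn9a*, which encodes the threshold sodium channel Nav1.7, stood at 47.3 CPM (36.2 to 60.8) and 13.7 CPM (11.2 to 16.7), a ratio of 3.46 (2.47 to 4.79). *Cacna1a* stood at 70.6 CPM (56.9 to 86.7) and 23.5 CPM (20.1 to 27.2), a ratio of 3.01 (2.31 to 3.90). None of these 3 pairs of intervals overlapped, but the genes had been picked by their ratio. The share of all genes without overlap was not counted. The classes also kept their order when every cell was thinned to 1000 UMIs. *Scn3b* was then found in 8.19% (5.56 to 11.6) of noradrenaline and 1.20% (0.735 to 1.85) of adrenaline cells. *Cacng3* had a ratio of 2.04 (1.25 to 3.23), so its interval includes ratios under 2, and one of 3.53 with cells thinned.

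In the other direction, *Cacna2d2* fell from 43.0 CPM in adrenaline to 3.10 CPM (4 UMIs, 0.846 to 7.95) in noradrenaline cells, which made it 13.8-fold lower (5.36 to 51.2). The drop in *Cacna2d2* stood beside a rise of its relative *Cacna2d1*, with a ratio of 1.94 (1.78 to 2.13) just under the 2-fold line. The noradrenaline over adrenaline ratio of *Cacna2d2* was 0.219 when cells were named singly by the markers they held. *Cacng8* (1 UMI against 30) had a ratio of 0.191 (0.00467 to 1.15), which turned above 1 when cells were thinned.

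Other genes, pore subunits among them, differed by less than 2-fold. *Cacna1d* was 1.70-fold lower in noradrenaline cells (1.48 to 1.98), and *Cacnb2* 1.75-fold lower (1.16 to 2.75). *Cacna1b*, at a ratio of 1.61 (1.12 to 2.28), and *Scn2a*, at 1.69 (1.06 to 2.59), lay higher in noradrenaline cells. *Scn3a* had nearly the same level in both, with a ratio of 1.12 (0.957 to 1.31). *Scn1a* had 21 UMIs in adrenaline and none in noradrenaline cells, where 3 counts would be 2.33 CPM, so a difference was not detectable at this depth.

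**Figure D2:**
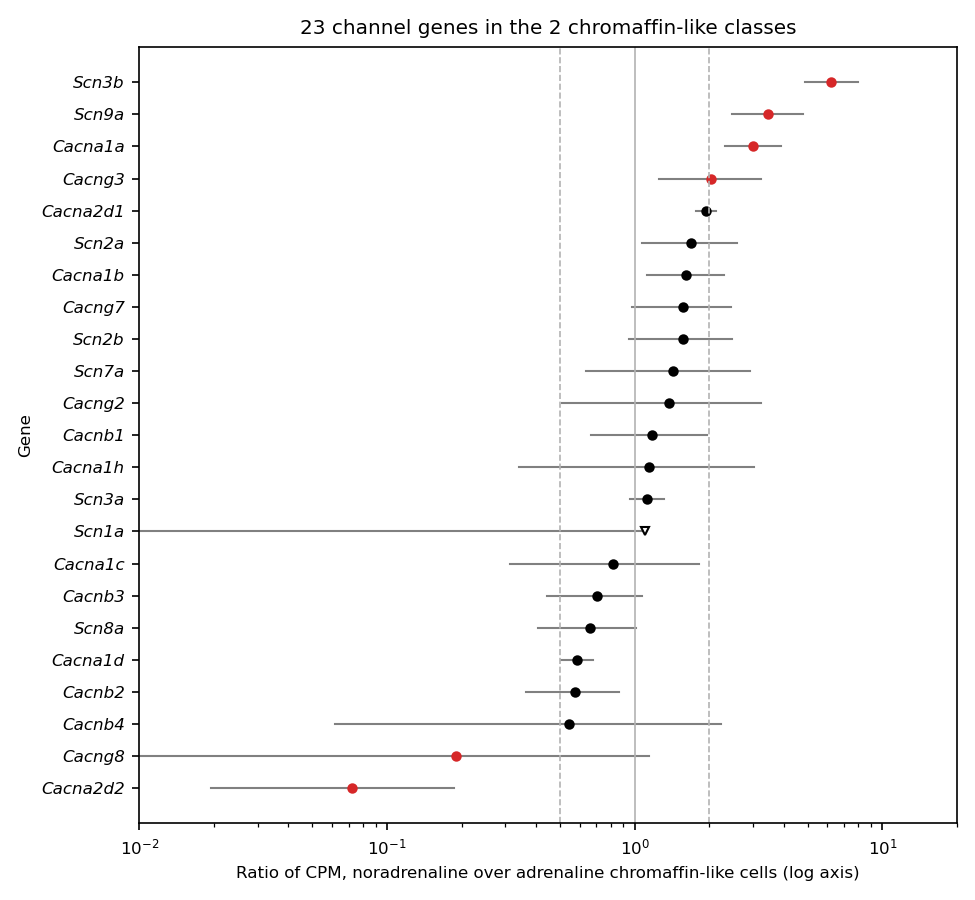
Ratio of CPM in noradrenaline over adrenaline chromaffin-like cells for 23 channel genes (log axis), with exact 95% intervals that cover counting error only and are cut off at the left edge; dashed lines mark 2-fold, red symbols are genes at least 2-fold apart, and the open triangle marks the upper bound of a gene without a UMI in noradrenaline cells. *Scn3b* lies at 6.21 and *Cacna2d2* at 0.0722, while *Scn3a* at 1.12 has an interval that includes 1.

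The sodium pore subunits fell into 2 patterns. In chromaffin-like cells, *Scn3a* (Nav1.3, a form known from the developing nervous system) had a UMI in 37.2% of adrenaline and 34.1% of noradrenaline cells against 0.0465% of endothelial-like cells. Its level was 135 CPM (127 to 144) and 151 CPM (131 to 174), with 0.814 CPM (0.497 to 1.26) in cortex-like and 0.350 CPM (2 UMIs) in endothelial-like cells. *Scn8a* (Nav1.6) stood at 25.8 CPM in chromaffin-like cells and at 0.692 CPM in cortex-like cells. *Scn2a* (Nav1.2) had 14.2 CPM (123 UMIs) in chromaffin-like cells and none among 3717 cortex-like and 2150 endothelial-like cells, so that it was at least 116-fold lower in cortex-like cells. *Scn7a* had the second pattern and is described with the sustentacular-like cells below.

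Of the sodium beta subunits, *Scn2b* (12.9 CPM) and *Scn3b* (31.1 CPM) were chromaffin genes, 24.5-fold (13.7 to 47.4) and 127-fold (57.7 to 350) above cortex-like cells.

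Of the sodium pore genes, 5 are neighbours on mouse chromosome 2 and have unlike patterns. In the GRCm38 assembly (GENCODE vM21), *Scn3a* spans chr2:65457118-65567627 on the minus strand, *Scn2a* chr2:65620771-65767447 on the plus strand, *Scn1a* chr2:66270778-66440840, *Scn9a* chr2:66480080-66634962 and *Scn7a* chr2:66673425-66784914, the last 3 on the minus strand. The intervals between *Scn1a* and *Scn9a* and between *Scn9a* and *Scn7a* measure 39.2 kb and 38.5 kb. *Scn3a* and *Scn2a* are 53.1 kb apart, and a wider interval of 503 kb separates *Scn2a* from *Scn1a*. The first 4 genes were read mainly in the chromaffin lineage, whereas *Scn7a* had its highest level in sustentacular-like cells. *Scn9a* had no UMI in sustentacular-like cells, which allows 12.98 CPM. The adjacent genes *Scn9a* and *Scn7a* had their highest levels in different classes, noradrenaline chromaffin-like and sustentacular-like cells, and transitioning-like cells held both. The 250 bases before the RefSeq start of *Scn9a* (chr2:66634963-66635212, minus strand, GRCm38.p6) and of *Scn7a* (chr2:66784911-66785160, minus strand) are printed 5′ to 3′, with each CG dinucleotide in capitals.
Scn9a: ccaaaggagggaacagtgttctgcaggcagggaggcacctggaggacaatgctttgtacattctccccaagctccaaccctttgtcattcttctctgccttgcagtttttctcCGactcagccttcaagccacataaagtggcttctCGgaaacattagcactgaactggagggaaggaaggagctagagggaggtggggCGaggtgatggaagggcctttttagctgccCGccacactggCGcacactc
Scn7a: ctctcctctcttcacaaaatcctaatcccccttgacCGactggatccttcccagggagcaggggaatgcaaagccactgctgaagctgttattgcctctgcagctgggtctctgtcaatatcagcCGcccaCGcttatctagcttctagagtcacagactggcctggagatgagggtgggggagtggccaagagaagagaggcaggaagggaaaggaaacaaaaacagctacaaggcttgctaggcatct
They hold 5 and 3 CG dinucleotides, at 54.4% and 53.2% G and C. The median over 32851 RefSeq promoter windows of the same length was 6, and 49.7% and 37.8% of all windows had as few as *Scn9a* and *Scn7a* or fewer. The dinucleotide counts are a description of these windows, and both lie at or below the median.

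**Figure D3:**
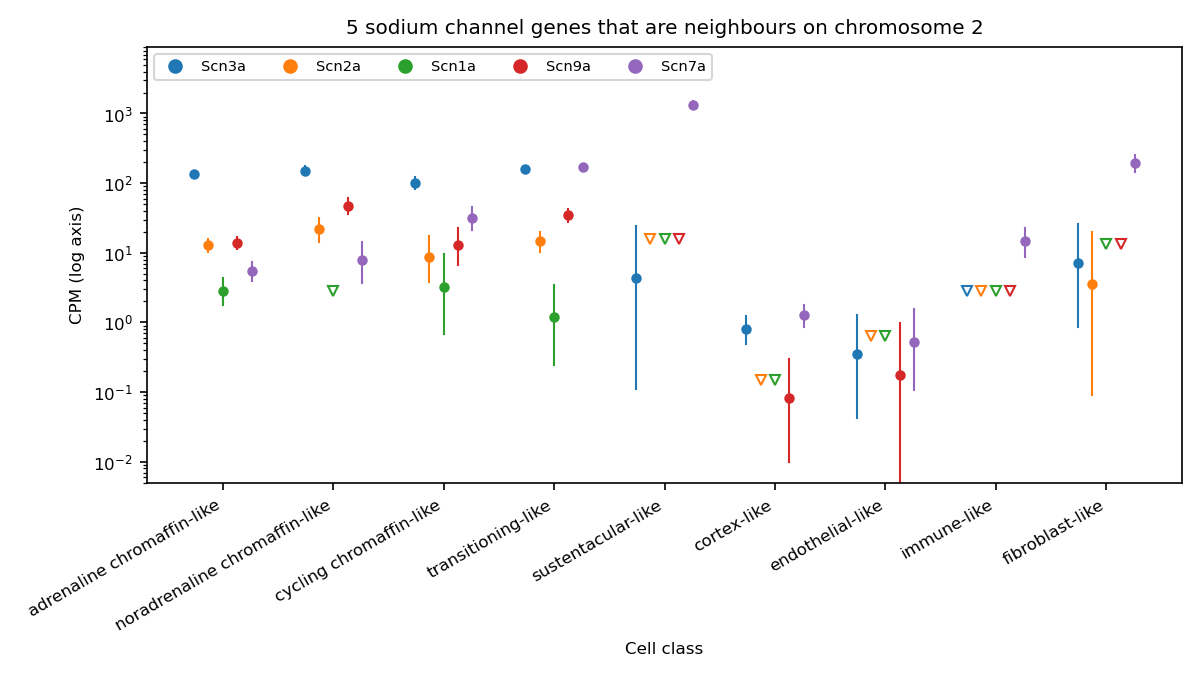
Level (CPM, log axis) of *Scn3a*, *Scn2a*, *Scn1a*, *Scn9a* and *Scn7a*, neighbours on chromosome 2, in 9 cell classes, with exact 95% intervals that cover counting error only; open triangles mark the upper bound where no UMI was found. *Scn7a* rises to 1328 CPM in sustentacular-like cells, while *Scn3a* stays between 101 and 157 CPM in the 4 classes with chromaffin markers.

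In sustentacular-like cells, *Scn7a* had 307 UMIs, or 1328 CPM (1184 to 1486), and was found in 70.4% of cells at a median of 1149 UMIs, against 0.0930% of endothelial-like cells at 2005.5 UMIs. It was 230-fold higher than in chromaffin-like cells (170 to 317), where it had 5.77 CPM. Of 24 channel genes compared with chromaffin-like cells, 2 were higher, *Scn7a* among them, where 15% of all compared genes were, and 13 were lower (16.2% of all). The median log2 ratio of the 24 was -1.35 beside 0.09 over all genes. Of the 13 lower genes, *Cacna2d1* was the one with more than 2 UMIs in sustentacular-like cells.

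The depth of the sustentacular-like cells limits those 13 calls. *Cacna1d* (1 UMI against 2237) had a chromaffin-like over sustentacular-like ratio of 59.7 (10.7 to 2359), *Scn3a* (1 UMI against 1190) one of 31.8 (5.69 to 1255) and *Cacna2d1* (11 UMIs against 2510) one of 6.09 (3.40 to 12.2). With cells named singly, the sustentacular-like over chromaffin-like ratio was 0.0634 in place of 0.0168 for *Cacna1d* and 0.0737 in place of 0.164 for *Cacna2d1*. With the nearer bound of the interval required to pass 2-fold, 4 of the 13 stayed, namely these 3 and *Cacna2d2*, which had no UMI in sustentacular-like cells. The share of all genes that pass this bound was not counted. The 7 chromaffin markers were themselves read in sustentacular-like cells at 2.23% to 12.3% of their chromaffin-like level, and the part of that RNA in the values of *Cacna2d1* was not tested.

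Transitioning-like cells, which hold markers of both lineages, had *Scn7a* beside the chromaffin channel genes. Of 25 channel genes, 1 was at least 2-fold higher than in chromaffin-like cells (7.73% of all genes), which was *Scn7a* at 171 CPM (156 to 188) and 29.7-fold (22.1 to 40.6), and 1 was lower (3.32% of all), *Scn1a* with 3 UMIs against 21. The other 23 lay within 2-fold, among them *Scn3a* at 157 CPM (142 to 173), *Scn9a* at 34.7 CPM (27.8 to 42.7) and *Scn3b* at 61.5 CPM (52.2 to 71.9). For *Scn9a*, *Scn3b*, *Cacna1a* and *Cacna2d1*, the transitioning-like level lay between the adrenaline and the noradrenaline level. These genes were picked among those higher in noradrenaline cells, and the *Cacna1d* level lay near the noradrenaline level instead. The class is 1 cluster with *Pnmt* in 45.5% of its cells. Whether its levels sum cells of both hormone types was not tested.

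The *Scn7a* level of transitioning-like cells was 0.129 of the sustentacular-like level (0.111 to 0.150), beside 13.9% to 22.4% for the 6 sustentacular markers. *Scn7a* was found in 215 of 415 transitioning-like cells, and 126 of those (58.6%) also held *Scn3a*. The share with both genes was 30.4%, beside 27.5% if the 2 genes were independent across cells. A single barcode thus often held a glial and a chromaffin sodium channel transcript, about as often as their separate shares give. Thinned to 1000 UMIs, 11 of 413 cells (2.66%) held both, beside 1.75%. The median depth of transitioning-like cells was 5126 UMIs, beside 3011 in chromaffin-like and 1149 in sustentacular-like cells. Scrublet called 0.482% of transitioning-like cells as doublets. The part of doublets or carried-over RNA in the shares with both genes was not tested. Against sustentacular-like cells, 13 of 18 channel genes were higher in transitioning-like cells (20.3% of all genes) and 2 were lower (12.9% of all), *Scn7a* among them. Depth limits these 13 calls too, since 1 UMI is 4.33 CPM in sustentacular-like cells and a gene without a UMI was set at 3 counts.

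Calcium channel genes also differed among cortex-like cells. The class held 4 clusters, of which 3 were not led by cell cycle genes. The first (761 cells) had *Wnt4*, known from the outer cortex, in more of its cells than the others. The second (902 cells) likewise had the most *Cyp11b1*, the enzyme that makes corticosterone, and the third (1703 cells) the most *Akr1c18*, known from the inner X-zone. The first 2 shared markers, with *Cyp11b1* in 81.7% and 94.8% of their cells and *Wnt4* in 72.1% and 24.9%. These clusters were chosen for comparison after their values had been seen, and their median depths were 5180, 5464.5 and 4801 UMIs.

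*Cacna1c* had 47.2 CPM (230 UMIs) in the *Wnt4* cluster, 22.9 CPM (133 UMIs) in the *Cyp11b1* cluster and 0.286 CPM (3 UMIs) in the *Akr1c18* cluster. *Cacna1h* had 31.6, 18.9 and 0.763 CPM in the same order. *Cacna1d* had 17.6, 8.95 and 0.859 CPM, and *Cacnb2* had 96.2, 36.5 and 10.6 CPM. All 4 genes were thus ordered from the *Wnt4* to the *Akr1c18* cluster. Between these 2 clusters the ratio was 165 for *Cacna1c* (55.7 to 805), 41.4 for *Cacna1h* (20.5 to 97.6), 20.5 for *Cacna1d* (10.3 to 46.4) and 9.08 for *Cacnb2* (7.37 to 11.3). *Cacna2d1* had 177, 161 and 139 CPM, a ratio of 1.27 (1.17 to 1.39), and *Cacna1a* had 6.77, 6.03 and 6.01 CPM.

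Of 9 channel genes compared between the *Wnt4* and *Akr1c18* clusters, 7 were at least 2-fold higher in the *Wnt4* cluster (22.2% of all genes) and 0 were lower (9.47% of all). Besides the 4 above they included *Cacna2d3* (28 UMIs against 2) and *Cacnb3* (23 against 3). Of 7 compared between the *Cyp11b1* and *Akr1c18* clusters, 4 were higher (11% of all genes) and 0 lower (6.29% of all), namely *Cacna1c*, *Cacna1d*, *Cacna1h* and *Cacnb2*. Between the *Wnt4* and *Cyp11b1* clusters, 6 of 10 were higher in the former (13.3% of all genes) and 0 lower (3.63% of all), among them *Cacna1c* at 2.06-fold (1.66 to 2.57) and *Cacnb2* at 2.63-fold (2.24 to 3.11). Scrublet called 4.99% of the *Wnt4* cluster, 3.77% of the *Cyp11b1* cluster and 0.294% of the *Akr1c18* cluster as doublets, and their part in the cluster differences was not tested. Over the whole class, 8 of 16 channel genes were higher than in endothelial-like cells (22.4% of all genes) and 3 were lower (22.5% of all), *Cacna1e* and *Cacng1* among them. Endothelial-like cells, which had no UMI of *Cacna1c* or *Cacna1h*, were 31.3-fold and 22.3-fold lower than cortex-like cells when set at 3 counts.

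**Figure D4:**
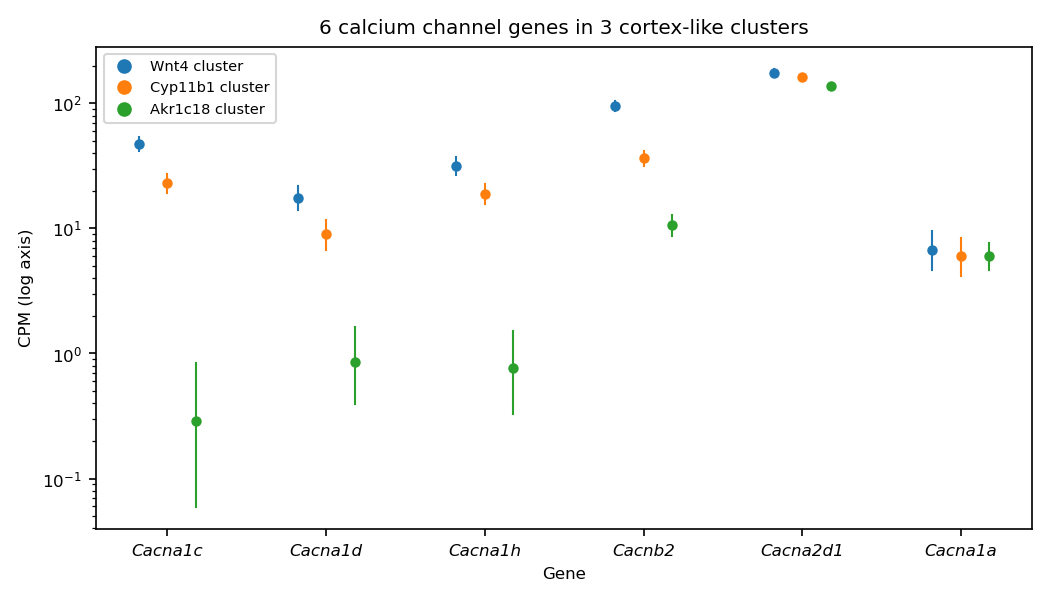
Level (CPM, log axis) of 6 calcium channel genes in 3 cortex-like clusters, named by the marker each showed in most cells, with exact 95% intervals that cover counting error only. *Cacna1c*, *Cacna1d*, *Cacna1h* and *Cacnb2* step down from the *Wnt4* to the *Akr1c18* cluster (47.2 to 0.286 CPM for *Cacna1c*), while *Cacna2d1* and *Cacna1a* stay nearly level.

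In the remaining classes few channel genes were read. Of 6 genes compared between immune-like and endothelial-like cells, 3 were higher in immune-like cells (11.5% of all genes) and 1 was lower (23.7% of all), *Cacng1* with 2 UMIs against 29. *Cacna1d* had 17.6 CPM (23 UMIs in 21 cells), 12.6-fold above endothelial-like cells (5.43 to 32.5), and *Cacna1a* was 3.71-fold higher (2.16 to 6.33). *Cacna1f*, an L type gene best known from photoreceptors, had 6 UMIs in immune-like cells and 12 over all cells. *Scn7a* was 27.7-fold higher (8.15 to 146), on 19 UMIs in 6 immune-like cells. Over all immune-like cells, the sustentacular markers stood at 0.256% to 1.70% of their own level. The part of sustentacular RNA in the *Scn7a* value was not tested. Chromaffin markers were read in immune-like cells at 0.330% to 1.42% of their chromaffin-like level, Scrublet called 7.51% of immune-like cells as doublets, and with those cells removed the immune-like over endothelial-like ratio of *Cacna1d* was 16.1. Under the stricter filter on genes and mitochondrial UMIs it was 26.1.

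In fibroblast-like cells, *Scn7a* had 193 CPM (145 to 252; 54 UMIs), 33.4-fold above chromaffin-like cells (22.3 to 50.1). Of 25 channel genes, 4 were higher there than in chromaffin-like cells (20.3% of all genes) and 11 lower (15.6% of all). Against endothelial-like cells, 3 of 5 were higher (12.3% of all genes) and 0 lower (9.07% of all), *Cacna2d1* and *Scn7a* among them. The *Scn7a* level was 0.145 of that in sustentacular-like cells (0.107 to 0.194). The 6 sustentacular markers were at 5.98% to 12.2% of their own level and the 5 endothelial markers at 51.4% to 67.2%. When cells were named singly, 23 were fibroblast-like, beside 88 in this class. The part of other cells, or of their RNA, in these values was not tested.

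Of 25 channel genes, 3 were higher in cycling chromaffin-like than in chromaffin-like cells (9.13% of all genes) and 2 were lower (4.69% of all). *Scn7a* was 5.47-fold higher (3.34 to 8.82), *Cacna1c* 2.19-fold (1.10 to 4.06) and *Cacng4* had 5 UMIs against 17. *Cacnb1* was 2.81-fold lower (1.06 to 10.5) and *Cacng8* had 1 UMI against 31. Cortex markers stood at 7.52% to 9.41% and sustentacular markers at 1.83% to 4.74% of their own classes' level in these cells, 12.1% of them were called doublets, and the part of these in the 3 higher genes was not tested.

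Adrenaline chromaffin-like cells formed 3 clusters of 842, 729 and 107 cells, with median depths of 2294, 5663 and 2763 UMIs, and the last had the most *Atf3*, a stress-response gene. *Cacna1d* had 243, 291 and 247 CPM in them and *Cacna2d1* had 221, 269 and 234 CPM. *Scn3b* had 7.89, 20.99 and 23.1 CPM. Of 23 channel genes, 3 were at least 2-fold higher in the second than in the first cluster (4.99% of all genes), *Scn3b* (2.66-fold, 1.56 to 4.83), *Cacnb1* (2.14-fold, 1.17 to 4.23) and *Cacng2* (25 UMIs against 4), and 0 were lower (0.636% of all). The gap in *Scn3b* between adrenaline clusters was smaller than its 6.21-fold gap between the hormone classes. In the *Atf3* cluster, 3 of 17 genes were higher than in the first (4.81% of all genes) and 1 was lower (5.04% of all). In that cluster *Scn3b* had 9, *Cacnb1* 7 and *Cacng3* 6 UMIs.

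Genes whose products work with these channels were counted from a list of 28 in the matrix. Of 25 compared, 16 were higher in chromaffin-like than in endothelial-like cells and 4 lower, beside 25.7% and 22.6% of all genes. Of 26 compared with cortex-like cells, 18 were higher and 4 lower, beside 24.1% and 23.3% of all genes. The sodium leak channel *Nalcn* had 44.0 CPM in chromaffin-like, 0.814 CPM in cortex-like cells and no UMI in endothelial-like cells. Its partners *Unc80* and *Unc79* had 166 and 33.8 CPM in chromaffin-like cells and 0.350 CPM each in endothelial-like cells. *Ank3*, the ankyrin that anchors sodium channels at the axon initial segment, was 58.1-fold (46.1 to 74.1) higher in chromaffin-like than in cortex-like cells. Its level was highest in sustentacular-like cells, at 683.7 CPM beside 179.5 CPM in chromaffin-like cells. *Unc80* was also read in sustentacular-like cells, at 147.1 CPM (34 UMIs). *Rimbp2*, which tethers calcium channels to release sites, was 880-fold (157 to 34865) higher in chromaffin-like than in cortex-like cells, on 310 UMIs against 1. *Rem1*, *Rrad* and *Gem*, small GTPases that bind calcium channel beta subunits, were instead lower in chromaffin-like than in endothelial-like cells. *Rem1* had no UMI in chromaffin-like cells and 18.04 CPM in endothelial-like cells, so it was 52.1-fold lower when set at 3 counts, and *Gem* was 3.16-fold lower.

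Between the hormone classes, 3 of 21 such genes were higher and 5 lower in noradrenaline cells, beside 6.1% and 8.95% of all genes. *Stac*, an adaptor of L type channels, had a noradrenaline over adrenaline ratio of 2.03 (1.44 to 2.81) and the ubiquitin ligase gene *Nedd4l* one of 2.50 (1.66 to 3.70). *Fgf14*, an intracellular partner of sodium channels, had 81 UMIs in adrenaline and none in noradrenaline cells, where it was 4.72-fold lower when set at 3 counts. *Tmem37*, a relative of the gamma subunits, had 33.1 CPM in adrenaline and 6.98 CPM in noradrenaline cells.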

How the data were processed

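The authors counted the reads with Cell Ranger 4.0.0 against mm10 (per the labels' processing notes), and the deposited values are UMI counts per gene and barcode without normalization, in 1 library of 51421499 UMIs. Cells with 500 to 5000 genes and at most 20% mitochondrial UMIs were clustered on 1 thread with Seurat 5.3.0 in R 4.3.3 (genes found in at least 3 cells, 2000 variable features less the channel genes, 10 principal components, Louvain resolution 0.4). A list named a cluster when 3 or more of its genes were found in 50% of the cells (25% where the list was sustentacular or cycling). Medullary clusters were clustered again until none had markers of another type. The sustentacular-like median depth was 1149 UMIs against 3567 over all cells, and *Col28a1* and *Gfra3*, markers of the list, were among the 10 leading genes of the class. Doublets were called with Scrublet in scanpy 1.11.5 (expected rate 8%) and removed only as an alternative.

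Counts were summed per class in Python 3.11.15 and expressed per 1000000 UMIs (CPM), with exact Poisson intervals. Ratios have exact conditional binomial intervals and shares of cells have exact Clopper-Pearson intervals (scipy 1.17.1), all at 95%. A class without a UMI was set at 3 counts over the class, so its fold values are not bounds of an interval. Members with at least 20 UMIs over all cells are described, and those with at least 10 CPM in a class of 50 cells or more in detail. The rule for calls was tried on simulated counts with known folds. Those held counting error only, so they check the computation and not the reported counts. All 40 members matched GENCODE vM21 by gene identifier and 30 had a RefSeq promoter entry. The members, the marker lists and the list of partners were chosen with earlier results of these data known. Results of 2 of the 40 genes are not reported here, although both remain in the counts and sums. Alternatives changed 1 choice at a time.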

Additional observations from a re-analysis of the deposited data

How the results depend on the processing

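No paired analysis was possible because there is 1 library. Of 102 counts of channel genes under the alternatives (resolutions of 0.2 and 0.8, 30 components, channel genes kept in the clustering, 1000 to 5000 genes with at most 10% mitochondrial UMIs, doublets removed, cells named singly, means over cells, a reduced denominator, 1000 UMIs per cell, at least 5 or 50 UMIs, and the interval's nearer bound), 96 stayed within 1.5 times the reported count. The share of all genes was not counted under any of these alternatives, so their counts have no background beside them. Thinning left 1 gene lower in chromaffin-like than in endothelial-like cells, 7 genes higher in noradrenaline than in adrenaline cells and 5 lower in sustentacular-like than in chromaffin-like cells. A minimum of 50 UMIs also left 1 gene lower in chromaffin-like than in endothelial-like cells, because *Cacna1e* and *Cacng1* have fewer. By the nearer bound, 1 gene (*Cacna2d2*) was lower in noradrenaline cells and 4 in sustentacular-like cells, and the share of all genes was not counted. The stricter filter left no sustentacular-like class, so that comparison was not run under it. Of 226 values of 23 named ratios, 213 lay inside the reported interval and 12 outside it in the same direction. The log2 ratio of *Cacng8* between noradrenaline and adrenaline cells reversed to 0.65 when thinned, since the noradrenaline cells had 1 UMI at full depth. Depth limits statements on sustentacular-like, fibroblast-like and cycling chromaffin-like cells most, where 1 UMI is 4.33, 3.57 and 1.09 CPM, and 1 UMI is 0.776 CPM in noradrenaline cells. The animals were pooled, so no spread between mice is known.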
